A study of Mus musculus with 54 samples.

Results

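Livers of mice with BMAL1, the core activator of the circadian clock, restored in the liver of a BMAL1 knockout were compared between ZT12, when the lights went off, and ZT0, when they came on (ZT counts the hours of the light cycle). The comparison took the 3 Liver-RE libraries at ZT12 and the 3 at ZT0, 6 of the 54 libraries of the study, and the 11561 of 18079 genes whose mean was at least 0.5 FPKM over these 6 livers. FPKM counts sequenced fragments relative to transcript length and to all mapped fragments of a library. Liver-RE mice (BMAL1-stop-FL) are BMAL1 knockouts with BMAL1 reconstituted in the liver, so that by design the livers of both times come from bodies without BMAL1 in other tissues. The driver of the reconstitution is not given in the sources used here. All mice were C57BL/6J females of 8 to 12 weeks on freely available normal chow under 12 h of light and 12 h of darkness. Livers of the other Liver-RE times (ZT4, ZT8, ZT16 and ZT20), of mice labelled WT and of mice labelled KO (BMAL1 knockout), 3 for each time, gave the spread and the comparisons between genotypes. The comparison asks which liver genes differ between lights-off and lights-on when BMAL1 is present in the liver and not in the rest of the body.

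BMAL1, encoded by Arntl, pairs with CLOCK or NPAS2 and activates genes that carry E-boxes, among them those of its own repressors, the PER and CRY proteins and the REV-ERBs (Nr1d1, Nr1d2). The REV-ERBs repress, and the ROR receptors activate, Arntl, Nfil3 and other genes through a shared DNA element. DBP, TEF and HLF activate, and NFIL3 represses, genes with D-boxes. In the liver, the output of this circuit includes the synthesis of fatty acids, cholesterol and NAD and the metabolism of foreign compounds, which feeding and hormones also drive through SREBP, PPARα and nuclear receptors of the xenobiotic response.

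Sequencing depth in the 6 livers, read from the value that 1 read is worth in genes of few reads, was 26.9 to 33.9 M reads. Replicate 3 at ZT0 stood apart from the other livers of its time in clock genes, with 1.91 FPKM of Arntl against 10.6 and 7.75, and on the second principal component of the 6 livers, at −25.8 against 14.9 and 8.26. Replicate 3 at ZT12 had the lowest Arntl and highest Dbp level of its time, and replicate 1 at ZT20, which enters only the spread, had clock genes apart from its time. Whether these libraries belong to the times on their labels cannot be told from the files. The 20 most abundant genes took 31.4% to 37.4% of the summed values in ZT12 livers and 29.8% to 34.0% in ZT0 livers. Hepatocyte markers summed to 53575 to 78243 FPKM in ZT12 livers and 44565 to 52999.8 in ZT0 livers (17 genes, ZT12 replicate 1 just above the highest ZT0 liver), Kupffer cell markers to 296 to 564 against 250.04 to 395 (16 genes) and endothelial markers to 208 to 303 against 193 to 249.6 (16 genes). Stellate cell markers summed to 177 to 302 FPKM at ZT12 against 164 to 182 at ZT0 (17 genes), and the adipocyte list to 1184 to 1341 against 569 to 699, most of it Car3, which hepatocytes also express. Markers of pancreas and muscle were at or below 0.0263 FPKM in sum, with Prss2, Pnlip and Myl1 at 0 in all 6 livers. In whole liver, fewer cells of a type and less RNA per cell cannot be told apart, and the part of these sums in the results was not tested.

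Of the 11561 genes, 13 rose (0.112%) and 7 fell (0.0605%), 0.173% together, at ZT12 relative to ZT0 at an adjusted p under 0.05 (limma on log2(FPKM + 1), spread from the 18 Liver-RE libraries, Benjamini-Hochberg adjustment over all genes). The genes that rose included Nampt, which limits the rate of NAD salvage, the plasma protein gene Hp, and the detoxifying enzymes Ugt1a1 and Cyp3a13. Those that fell included Acacb and Fdps, enzymes of malonyl-CoA and isoprenoid synthesis, and Scap, the escort of the SREBP transcription factors. On the log2(FPKM + 1) scale the size was at least 2-fold for 8 of the 13 and 5 of the 7. In all 20 the 3 ZT12 livers and the 3 ZT0 livers did not overlap, as was so of 10.4% of all genes on the higher and 8.42% on the lower side, 18.8% together. At an unadjusted p under 0.05 there were 947 higher (8.19%) and 781 lower genes (6.76%), and the median log2 difference of all genes was 0.02. The adjusted calls depended on single livers: none remained without ZT0 replicate 1, ZT12 replicate 2 or ZT12 replicate 3, and without ZT0 replicate 2 the only call was Mir7054, a microRNA gene outside the 20 that was picked for this result. None remained either with no filter on low values, and 15 of the 20 were among the 19 calls without ZT20 replicate 1. A fit to only the 6 livers called 23 genes, with 8 of the 20 among them, and Nampt, Hp, Ugt1a1, Fdps and Acacb were not. Without ZT0 replicate 3 there were 55 higher and 60 lower genes, with 19 of the 20 among them, and without ZT12 replicate 1 there were 158 and 93, with all 20 among them. In every fit that left out 1 liver all 20 had an unadjusted p under 0.05. Their sign could not change in these fits, since the livers of the 2 times did not overlap. The 20 were picked from these same livers, so neither result is separate support for them. Scaling also set the split: 56 genes were higher and 49 lower after quantile normalization, and 37 and 144 when the 20 most abundant genes were left out of the scaling, which put the median log2 difference of all genes at −0.09. All 20 genes kept their direction under both scalings.

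**Figure D1:**
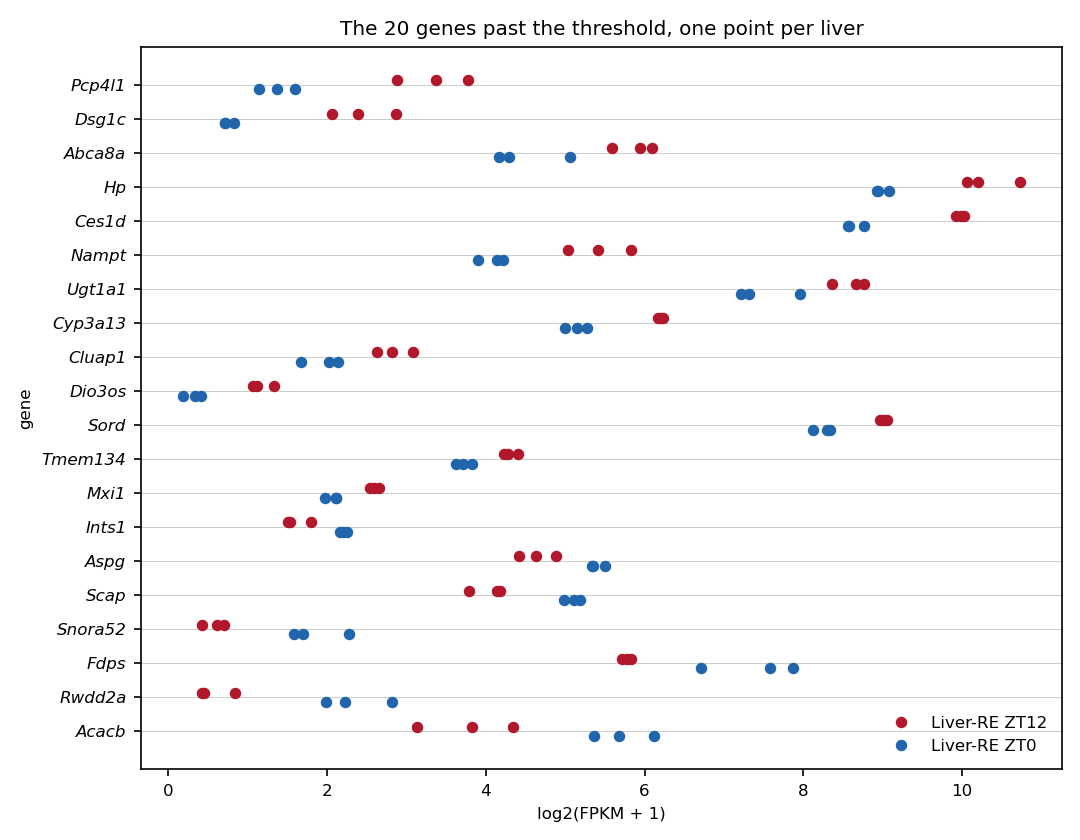
The 20 genes past the threshold, by row, with log2(FPKM + 1) on the horizontal axis and 1 point per liver (ZT12 red, drawn above ZT0 in blue). In no row do the 3 ZT12 points and the 3 ZT0 points overlap, and the widest gap in means is that of Pcp4l1, a log2 difference of 1.98.

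Several of the genes that rose encode metabolic enzymes. Ces1d (chromosome 8, 93166072 to 93197804, GRCm38), a carboxylesterase of the endoplasmic reticulum that hydrolyses lipid esters and drugs, stood at 1017, 1040.4 and 969 FPKM in the ZT12 livers, against 381, 436 and 377 FPKM in the ZT0 livers. The ZT12 livers were all above the ZT0 livers by a wide margin, with a log2 difference of 1.34 ± 0.19 (SE) and an adjusted p of 0.0207. Cyp3a13 (chromosome 5, 137892933 to 137925610), a cytochrome P450, was equally tight at 74.4, 73.0 and 70.9 FPKM at ZT12, against 30.9, 34.5 and 37.7 FPKM at ZT0 (log2 difference 1.07 ± 0.16, adjusted p 0.0207). Sord, sorbitol dehydrogenase, which turns sorbitol into fructose, reached 513, 532 and 500.4 FPKM at ZT12, against 315, 278 and 323 FPKM at ZT0 (log2 difference 0.75 ± 0.14, adjusted p 0.0431).

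Ugt1a1 (chromosome 1, 88211959 to 88220002) conjugates bilirubin and many drugs. Its level was 328, 436 and 405 FPKM at ZT12, against 159, 148 and 249 FPKM at ZT0, with ZT0 replicate 3 the highest of the ZT0 livers (log2 difference 1.10 ± 0.20, adjusted p 0.0431). Ugt1a1 shares exons with 8 other Ugt1a genes of the annotation, so reads of these could count for it. Abca8a (chromosome 11, 110025634 to 110097580), a membrane transporter of the ABC family, held 47.2, 60.5 and 67.3 FPKM at ZT12, against 16.9, 18.5 and 32.4 FPKM at ZT0, again with ZT0 replicate 3 nearest to the ZT12 livers (log2 difference 1.37 ± 0.26, adjusted p 0.0471).

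Nampt (chromosome 12, 32820335 to 32853369) makes nicotinamide mononucleotide, the precursor of NAD in the salvage pathway. The 3 ZT12 livers had 31.7, 41.6 and 56.0 FPKM, against 14.0, 16.7 and 17.6 FPKM in the 3 ZT0 livers. Every ZT12 liver was higher than every ZT0 liver, and the ZT12 livers were the more spread group (log2 difference 1.34 ± 0.24, adjusted p 0.0431). Hp (chromosome 8, 109575128 to 109579172), haptoglobin, binds free haemoglobin in plasma and belongs to the acute-phase proteins. It stood at 1066, 1701 and 1179 FPKM at ZT12, against 491, 487 and 542 FPKM at ZT0, where the livers were close together (log2 difference 1.35 ± 0.21, adjusted p 0.0207).

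Pcp4l1 had the largest log2 difference, 1.98 ± 0.38, with 6.37, 12.7 and 9.31 FPKM at ZT12 against 1.57, 1.20 and 2.01 FPKM at ZT0 (adjusted p 0.0489). Dsg1c, a desmoglein of cell junctions, had 3.16, 4.22 and 6.33 FPKM at ZT12 against 0.642, 0.638 and 0.771 FPKM at ZT0 (log2 difference 1.69 ± 0.26, adjusted p 0.0207). Mxi1 encodes a MAX partner that opposes MYC, and its log2 difference was 0.53. That of Cluap1, a gene of cilium assembly, was 0.89, that of Tmem134 0.58 and that of Dio3os, a non-coding RNA antisense to Dio3, 0.86, with adjusted p between 0.0431 and 0.0489. Whether reads were counted by strand is not given in the sources used here, so Dio3os cannot be told apart from transcripts of the other strand.

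Among the genes that fell, Acacb (chromosome 5, 114146321 to 114250761) had the largest difference. It encodes the acetyl-CoA carboxylase at mitochondria, whose product, malonyl-CoA, restrains the entry of fatty acids for oxidation. Its level was 13.2, 7.77 and 19.3 FPKM in the ZT12 livers, against 50.0, 68.4 and 40.1 FPKM in the ZT0 livers (log2 difference −1.95 ± 0.36, adjusted p 0.0471). Fdps (chromosome 3, 89093588 to 89101967), farnesyl diphosphate synthase of the cholesterol pathway, had 51.6, 54.1 and 56.1 FPKM at ZT12, against 232, 190.5 and 104 FPKM at ZT0. The ZT12 livers were nearly equal, and ZT0 replicate 3 was the lowest of the ZT0 livers (log2 difference −1.61 ± 0.29, adjusted p 0.0431). Scap (chromosome 9, 110333288 to 110384949) carries the SREBPs from the endoplasmic reticulum to the Golgi, where they are cut into active factors. It had 16.6, 12.8 and 17.1 FPKM at ZT12, against 30.6, 35.3 and 33.4 FPKM at ZT0 (log2 difference −1.05 ± 0.19, adjusted p 0.0431), and all 3 ZT0 livers were close to each other.

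Aspg, an asparaginase, had 28.4, 20.4 and 23.8 FPKM at ZT12, against 39.6, 44.4 and 39.7 FPKM at ZT0 (log2 difference −0.75 ± 0.14, adjusted p 0.0471). Ints1, a subunit of the Integrator complex that processes small nuclear RNAs, differed by −0.60 ± 0.11 on the log2 scale (adjusted p 0.0489). Rwdd2a had 0.363, 0.345 and 0.794 FPKM at ZT12, against 2.96, 3.69 and 6.03 FPKM at ZT0 (log2 difference −1.77 ± 0.34, adjusted p 0.0489), and every ZT12 liver was below every ZT0 liver. Snora52, a small nucleolar RNA, differed by −1.27 ± 0.21 (adjusted p 0.0423). It lies within Rplp2 on the same strand, so reads of the host gene could count for it. Exons of Cluap1, Fdps, Ints1 and Dio3os overlap those of another annotated gene on the same strand, and exons of Cluap1, Mxi1 and Scap overlap a gene on the other strand.

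The E-box CACGTG, the motif that BMAL1 and its partner bind, was searched on both strands in the 250 bases before each start in the RefSeq promoter table (GRCm38.p6). It was present in 1 of the 9 genes that rose with a promoter entry (Abca8a) and in 1 of the 5 that fell (Scap), while 6.02% of all 32851 promoters searched held it. The D-box spellings TTATGTAA and TTATGCAA and the stretch TAGGTCA of the REV-ERB and ROR element were in none of these 14 genes, against 1.501% and 2.23% of all promoters. A gene counted if any of its promoter entries held the motif, while the shares of all promoters are per entry, so the 2 measures are not alike. No motif contains another. A match describes letters, not binding. The stretches below are shown because they hold the motif in the called genes and, for comparison, in the clock genes with one, each with 10 bases on either side and the E-box in capitals, 5′ to 3′ on the gene's strand.
Abca8a (rose; chr11:110096058-110096083, minus strand): cgagaatggtCACGTGaatacagtgc
Scap (fell; chr9:110333306-110333331, plus strand): ccgccgggagCACGTGtggagggcgg
Cry1 (chr10:85185099-85185124, minus strand): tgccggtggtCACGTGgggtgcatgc
Ciart, nearest to its start (chr3:95882257-95882282, minus strand): tgcagaaccgCACGTGtctgggaggg
Per1 (chr11:69098773-69098798, plus strand): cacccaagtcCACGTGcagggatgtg
Tef (chr15:81802536-81802561, plus strand): gctgtggctcCACGTGctgcagctgg
The motif of Abca8a ended 130 bases before the start and that of Scap 34 bases before it, against 54 in Cry1, 38 in Ciart, 160 in Per1 and 121 in Tef. Ciart held 3 such motifs, and Tef had 1 before each of 2 annotated starts. In the annotation used for the coordinates Abca8a, Scap and Per1 have a start farther upstream, so that the stretches shown for them lie within the gene there. The 2 called genes with an E-box moved in opposite directions.

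Over the whole day, ZT12 and ZT0 were not the extreme times of every gene. Nampt averaged 16.1 ± 1.88 FPKM at ZT0, 23.6 ± 5.08 at ZT4, 33.7 ± 2.12 at ZT8, 43.1 ± 12.2 at ZT12, 24.5 ± 7.19 at ZT16 and 21.2 ± 5.45 at ZT20 (SD, n = 3). Its mean was thus lowest at ZT0 and highest at ZT12. Ces1d had its highest mean, 1009 ± 36.5 FPKM, at ZT12, and its lowest, 392 ± 85.6, at ZT4, next to 398 ± 32.9 at ZT0. Fdps was at 176 ± 65.2 FPKM at ZT0, 121 ± 34.8 at ZT8, 53.9 ± 2.25 at ZT12 and 102 ± 29.9 at ZT20, and Scap at 33.1 ± 2.39, 24.9 ± 6.09, 15.5 ± 2.32 and 19.7 ± 5.02 at the same times. Acacb was lowest at ZT12 (13.4 ± 5.74 FPKM), but its course held another high mean at ZT8 (41.4 ± 11.5). These times were read after the genes had been chosen for the difference between ZT12 and ZT0, and are given as a description.

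**Figure D2:**
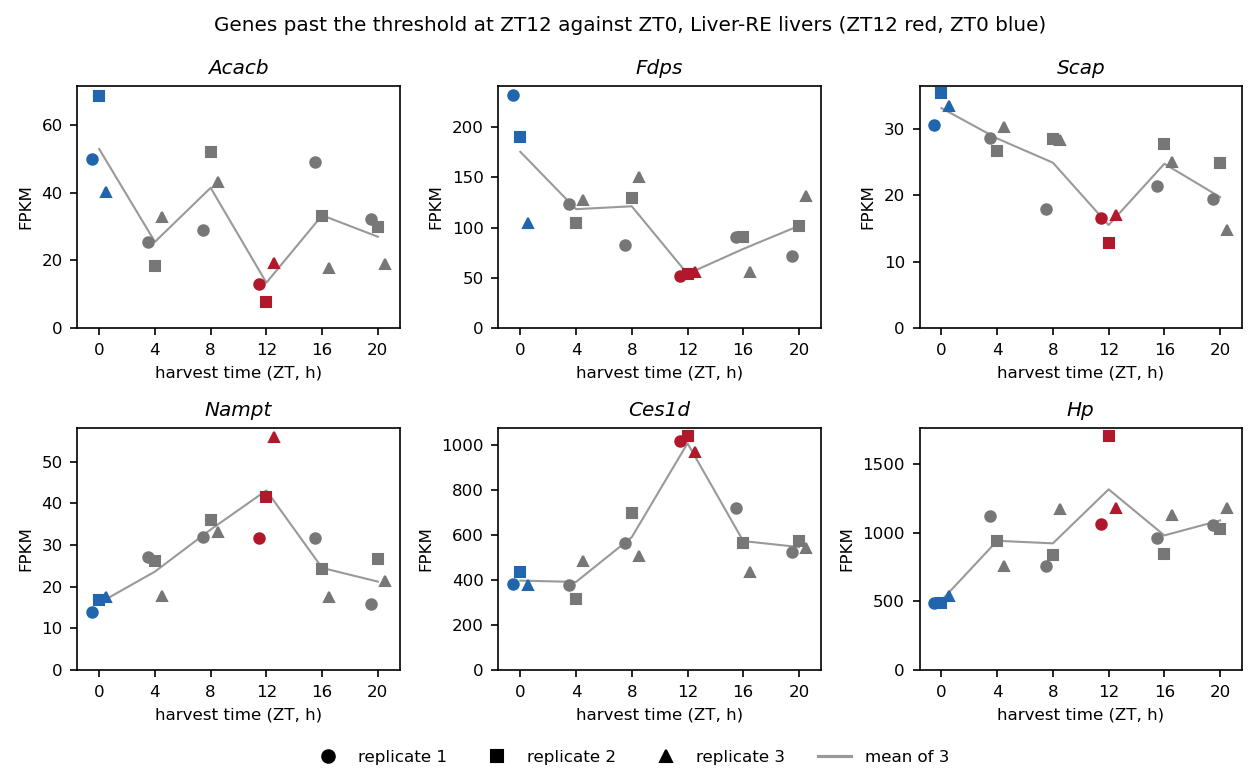
FPKM of 6 of the 20 genes in Liver-RE livers at the 6 harvest times (horizontal axis, ZT in hours), with a symbol for each replicate number and a line through the means of 3 (ZT12 red, ZT0 blue). Fdps and Scap have their lowest mean at ZT12 and their highest at ZT0, and Nampt, Ces1d and Hp have their highest mean at ZT12.

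The genes of fatty acid and triglyceride synthesis had mostly negative differences, and Acacb was the only one past the adjusted threshold. Of the 20 listed, all tested, 0 rose and 1 fell, and 18 had a negative difference. At an unadjusted p under 0.05, 0 were higher and 13 lower, against 8.19% and 6.76% of all genes, and the livers of 8 did not overlap on the lower side, against 8.42% of all genes. The list's median log2 difference was −1.35, against 0.02 over all genes tested. In the WT livers the median of the list was 0.07 and in the KO livers 0.30. Leaving out 1 liver moved the Liver-RE median between −1.06 and −1.71, and the number lower at the unadjusted threshold between 8, without ZT0 replicate 2, and 12. The number past the adjusted threshold was 8 without ZT0 replicate 3, 4 without ZT12 replicate 1 and 0 without any other single liver. It was 6 under quantile normalization, 6 of 19 tested with the 20 most abundant genes left out, and 7 in the model of all 54 libraries.

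Fasn, fatty acid synthase, had 96.0, 61.8 and 184 FPKM at ZT12, against 657, 583 and 314 FPKM at ZT0 (log2 difference −2.25 ± 0.52, adjusted p 0.0755). The groups did not overlap, and the livers nearest to each other across the times were both replicate 3. Acss2, which makes acetyl-CoA from acetate, had 74.7, 53.5 and 114 FPKM at ZT12, against 478, 475 and 219 FPKM at ZT0 (log2 difference −2.24 ± 0.47, adjusted p 0.0531). Acaca, the cytosolic acetyl-CoA carboxylase, had 12.5, 12.1 and 24.1 FPKM at ZT12, against 58.3, 54.5 and 23.5 FPKM at ZT0 (log2 difference −1.40 ± 0.31, adjusted p 0.0669). Here the groups overlapped, since ZT12 replicate 3 lay just above ZT0 replicate 3. Elovl5, an elongase of polyunsaturated fatty acids, had 208, 197 and 171 FPKM at ZT12 against 460.4, 398 and 272 FPKM at ZT0 (log2 difference −0.94 ± 0.20, adjusted p 0.0603). Acly and Scd1, which make cytosolic acetyl-CoA and monounsaturated fatty acids, differed by −1.72 ± 0.51 (adjusted p 0.135) and −1.51 ± 0.42 (adjusted p 0.112). The transcript of their activator Srebf1 differed by −0.24 ± 0.43 (adjusted p 0.827).

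Cholesterol synthesis and its regulators had the same direction. Of 26 listed genes, all tested, 0 rose and 1, Fdps, fell, and 25 had a negative difference, the exception being Insig1. At an unadjusted p under 0.05, 0 were higher and 15 lower, against 8.19% and 6.76% of all genes. Without overlap of the livers 17 were lower, against 8.42% of all genes. The median log2 difference was −0.71, against −0.24 in WT and 0.15 in KO livers. It lay between −0.57 and −0.90 when 1 liver was left out, with 5 genes past the adjusted threshold without ZT0 replicate 3, 6 without ZT12 replicate 1 and 0 without any other single liver. The number was 7 under quantile normalization, 9 with the 20 most abundant genes left out and 4 in the model of all 54 libraries. Hsd17b7, a sterol reductase of the pathway, had 12.7, 10.2 and 11.1 FPKM at ZT12, against 29.5, 22.7 and 20.6 FPKM at ZT0 (log2 difference −1.02 ± 0.21, adjusted p 0.0506). Nsdhl, which removes the C4 methyl groups of sterols, differed by −0.996 ± 0.21 (adjusted p 0.0559) and Dhcr7, which makes cholesterol from its last precursor, by −1.30 ± 0.28 (adjusted p 0.0664). Srebf2, the transcription factor of the pathway, had 6.14, 3.61 and 3.68 FPKM at ZT12, against 7.24, 7.14 and 8.39 FPKM at ZT0 (log2 difference −0.68 ± 0.16, adjusted p 0.0794).

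**Figure D3:**
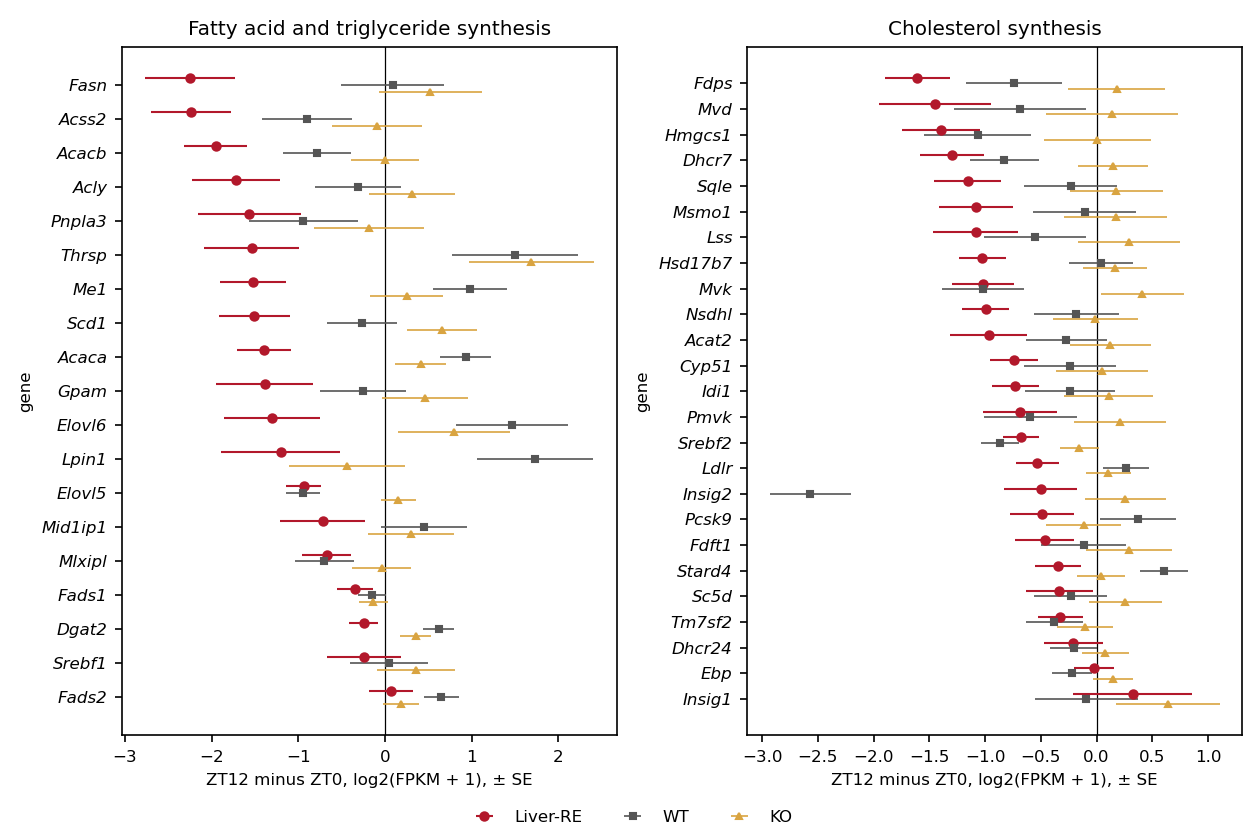
ZT12 minus ZT0 on the log2(FPKM + 1) scale (points, with bars of 1 SE) for the genes of fatty acid and triglyceride synthesis (left) and of cholesterol synthesis (right) in Liver-RE (red), WT (grey) and KO livers (yellow). In Liver-RE 18 of the 19 points shown on the left and 24 of the 25 shown on the right lie below 0, and Fasn, Acss2 and Acacb lie farthest out in the left panel.

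Fatty acid oxidation and other PPARα targets had mostly positive differences. Of 25 genes 0 rose and 0 fell, and 14 were higher and 0 lower at an unadjusted p under 0.05, against 8.19% and 6.76% of all genes. Without overlap of the livers 10 were higher, against 10.4% of all genes. The median log2 difference was 0.47, against 0.34 in WT and −0.05 in KO livers. Acadm, the medium-chain acyl-CoA dehydrogenase, had 143, 134 and 122 FPKM at ZT12, against 84.8, 67.4 and 96.2 FPKM at ZT0 (log2 difference 0.69 ± 0.16, adjusted p 0.0755). The count of 14 was 4 under quantile normalization and 5 with the 20 most abundant genes left out, with medians of 0.34 and 0.32. It was 6 without ZT0 replicate 2, 8 without ZT0 replicate 1 or ZT12 replicate 2 and 9 without ZT12 replicate 1.

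Of 31 genes of xenobiotic and haem metabolism, 2 rose, Cyp3a13 and Ugt1a1, and 0 fell. At an unadjusted p under 0.05, 12 were higher and 2 lower, against 8.19% and 6.76% of all genes. The median log2 difference was 0.47, against 0.35 in WT and 0.07 in KO livers. The 12 were 7 without ZT0 replicate 1 or ZT12 replicate 3. Cyp2e1, which oxidises ethanol and small solvents, had 2321, 3125 and 3033 FPKM at ZT12, against 1066, 1044 and 2219 FPKM at ZT0 (log2 difference 1.05 ± 0.27, adjusted p 0.0952). Gclc, which limits glutathione synthesis, differed by 0.95 ± 0.22 (adjusted p 0.0731). Of 22 genes of NAD metabolism, Nampt rose and 0 fell, with 4 higher and 5 lower at an unadjusted p under 0.05 and a median of 0.03. There were 2 higher and 2 lower without ZT0 replicate 1, and 3 lower without ZT0 replicate 2, ZT12 replicate 1 or ZT12 replicate 2. With the 20 most abundant genes left out there were 3 higher and 7 lower of 23 tested. The deacylase gene Sirt5 was among those 5, with a log2 difference of −0.68 ± 0.18 (adjusted p 0.101).

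Of 22 acute-phase genes, Hp rose and 0 fell, with 5 higher and 0 lower at an unadjusted p under 0.05 and a median log2 difference of 0.40, against 0.09 in WT and 0.48 in KO livers. Those 5 were 3 without ZT0 replicate 1 or 2 or ZT12 replicate 2 or 3, 9 without ZT0 replicate 3 and 11 without ZT12 replicate 1. Over all genes 8.19% were higher and 6.76% lower at the unadjusted threshold. Saa4, a constitutive serum amyloid A, had 63.6, 58.4 and 60.0 FPKM at ZT12, against 23.3, 34.5 and 38.8 FPKM at ZT0 (log2 difference 0.92 ± 0.20, adjusted p 0.0603). None of 25 interferon response genes passed the adjusted threshold, and at the unadjusted threshold 7 were higher and 0 lower, with a median of 0.34, and 3 higher without ZT12 replicate 2 or 11 without ZT0 replicate 2. Ifit1 had 5.66, 6.42 and 4.31 FPKM at ZT12, against 1.38, 3.29 and 2.67 FPKM at ZT0 (log2 difference 0.94 ± 0.26, adjusted p 0.114). None of 16 Kupffer cell and macrophage markers passed either, 8 were higher and 0 lower at the unadjusted threshold, and the median was 0.57. Without overlap of the livers 1 of the 16 was higher and 0 lower, against 10.4% and 8.42% of all genes. The macrophage surface gene Adgre1 had 9.31, 17.6 and 16.3 FPKM at ZT12, against 6.19, 11.0 and 6.89 FPKM at ZT0 (log2 difference 0.76 ± 0.31, adjusted p 0.259), with ZT12 replicate 1 inside the range of the ZT0 livers. Without ZT12 replicate 1 the Kupffer list counted 15 higher at the unadjusted threshold, without ZT0 replicate 2 it counted 12, and without ZT0 replicate 1, ZT0 replicate 3 or ZT12 replicate 2 or 3 it counted 2 at most. The part of these markers in the acute-phase and interferon values was not tested.

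With all 6 livers and the deposited scaling, no gene of the unfolded protein response, glycogen, fasting, glucocorticoid, autophagy, bile acid or sex-biased lists passed the adjusted threshold. For the counts at the unadjusted threshold, the shares over all genes were 8.19% higher and 6.76% lower. In the unfolded protein response, 3 of 22 genes were higher and 0 lower at the unadjusted threshold (median 0.53). That count was 10 without ZT12 replicate 1, 1 without ZT0 replicate 2 or with the 20 most abundant genes left out of the scaling, and 0 without ZT0 replicate 1 or ZT12 replicate 2 or 3, and the median was 0.19 without ZT12 replicate 2. In glycogen and glucose metabolism, 2 of 24 genes were higher and 5 lower (median −0.07). Only 2 were lower without ZT12 replicate 1, 8 of 23 tested were lower with the 20 most abundant genes left out, and 1 was higher under either scaling and without any single liver other than ZT0 replicate 1. In 18 fasting genes 0 passed the unadjusted threshold in either direction (median 0.08), while 1 was higher without ZT0 replicate 2, and 2 were higher and 1 lower without ZT0 replicate 3. Pck1, the gluconeogenic enzyme of that list, had 536, 511 and 577 FPKM at ZT12, against 118, 142 and 364 FPKM at ZT0, without overlap (log2 difference 1.56 ± 0.76, adjusted p 0.349).

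Of 16 genes induced by glucocorticoids 1 was higher and 0 lower at the unadjusted threshold (median 0.04), with 0 or 1 higher when 1 liver was left out. The same shares over all genes, 8.19% higher and 6.76% lower, apply to this and the following lists. In 20 autophagy genes 4 were higher and 1 lower at the unadjusted threshold. There were 2 higher without ZT0 replicate 1 or ZT12 replicate 2 and 2 lower without ZT12 replicate 1, and the split was 4 and 4 under quantile normalization and 1 and 4 with the 20 most abundant genes left out. In 19 bile acid genes 0 were higher and 1 lower. The split was 0 and 3 under both scalings, 3 and 2 without ZT0 replicate 3, 1 and 2 without ZT12 replicate 1, 1 and 1 without ZT12 replicate 2, and 1 and 0 without ZT12 replicate 3. Of 19 genes with female-biased expression under growth hormone 4 were higher and 0 lower (median 0.61). The count was 1 without ZT0 replicate 1, 2 without ZT12 replicate 3 or with the 20 most abundant genes left out, and 6 without ZT0 replicate 3, and the median lay between 0.41 and 0.96 when 1 liver was left out. The female-biased Cyp2a4 had 274, 334 and 581 FPKM at ZT12, against 56.6, 123 and 189 FPKM at ZT0 (log2 difference 1.77 ± 0.67, adjusted p 0.229), and its near-identical copy Cyp2a5 could share its reads. Of 22 male-biased genes 1 was higher and 1 lower, with 0 to 2 higher and 1 or 2 lower when 1 liver was left out. At the unadjusted threshold 0 were higher and 2 lower of 18 heat shock and cold-inducible genes, 2 higher and 0 lower of 20 cell cycle and growth genes, and 0 in either direction of 10 immediate early genes. When 1 liver was left out, 0 to 3 of the heat shock and cold-inducible genes were lower and 0 to 2 of the cell cycle and growth genes higher. Of 77 genes of ribosomal proteins 4 were higher and 2 lower, but 26 and 0 without ZT12 replicate 1, and 0 and 9 with the 20 most abundant genes left out.

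None of the 18 clock genes that passed the filter, of 19 listed, passed the adjusted threshold between ZT12 and ZT0, and Bhlhe41 was below the filter. At an unadjusted p under 0.05, 6 were higher and 3 lower, against 8.19% and 6.76% of all genes, the livers of 3 were higher and of 2 lower without overlap, and the median log2 difference was −0.01. The 6 were 3 without ZT0 replicate 1, ZT0 replicate 3 or ZT12 replicate 3 and with the 20 most abundant genes left out of the scaling, and the median was 0.29 without ZT0 replicate 3. The smallest adjusted p was that of Nr1d1, which encodes the repressor REV-ERBα: 0.516, 0.508 and 1.46 FPKM at ZT12, against 6.01, 8.38 and 5.61 FPKM at ZT0 (log2 difference −2.09 ± 0.57, adjusted p 0.107). All ZT12 livers were below all ZT0 livers. Nr1d1 overlaps exons of Thra on the other strand. Among the activators, Arntl overlapped completely, with 5.95, 7.49 and 2.74 FPKM at ZT12 against 10.6, 7.75 and 1.91 FPKM at ZT0 (log2 difference −0.14 ± 0.41, adjusted p 0.903). Npas2, the alternative partner of BMAL1, had 0.352, 0.284 and 0.380 FPKM at ZT12, against 2.03, 1.26 and 0.504 FPKM at ZT0 (log2 difference −0.70 ± 0.22, adjusted p 0.158, and 0.0365 without ZT0 replicate 3).

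Of the other repressors, Cry1 had 9.63, 10.9 and 7.03 FPKM at ZT12, against 5.18, 4.19 and 3.46 FPKM at ZT0, without overlap (log2 difference 0.94 ± 0.31, adjusted p 0.176). Per1, Per2, Nr1d2, Ciart and Bhlhe40 overlapped between the times, with log2 differences of −0.24, −0.08, 0.13, −0.29 and −0.38. Among the D-box factors, Dbp had 4.19, 2.02 and 15.9 FPKM at ZT12, against 1.61, 5.83 and 15.4 FPKM at ZT0 (log2 difference −0.05 ± 0.62, adjusted p 0.977), and replicate 3 was the highest of both times. Dbp overlaps exons of Sphk2 on the other strand. Tef had 24.3, 19.5 and 31.9 FPKM at ZT12, against 6.69, 13.4 and 24.0 FPKM at ZT0 (log2 difference 0.87 ± 0.33, adjusted p 0.231), and Nfil3, their opponent, 13.3, 12.4 and 6.32 FPKM at ZT12, against 9.01, 6.85 and 3.04 FPKM at ZT0 (log2 difference 0.71 ± 0.29, adjusted p 0.253).

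The levels at the other times show where the 2 harvests lie on these courses. Dbp averaged 7.63 ± 7.09 FPKM at ZT0, 36.2 ± 0.265 at ZT4, 26.8 ± 14.8 at ZT8, 7.35 ± 7.44 at ZT12, 2.65 ± 0.752 at ZT16 and 2.25 ± 1.64 at ZT20 (SD, n = 3), so that its highest mean lay at ZT4, between the 2 harvests compared. Arntl averaged 6.74 ± 4.42 FPKM at ZT0, 1.65 ± 0.407 at ZT4, 1.40 ± 0.525 at ZT8, 5.395 ± 2.42 at ZT12, 9.46 ± 1.60 at ZT16 and 7.91 ± 3.00 at ZT20. Its lowest means lay at ZT4 and ZT8 and its highest at ZT16, with similar levels at ZT12 and ZT0. Nr1d1 averaged 6.66 ± 1.498 FPKM at ZT0, 9.02 ± 4.17 at ZT4, 4.10 ± 4.38 at ZT8, 0.828 ± 0.547 at ZT12, 0.784 ± 0.552 at ZT16 and 4.53 ± 5.47 at ZT20, with its lowest means at ZT12 and ZT16. In both livers numbered 3, Arntl was the lowest and Dbp the highest of their time. Without ZT0 replicate 3, Npas2 was past the adjusted threshold with a log2 difference of −0.97 (adjusted p 0.0365), that of Arntl was −0.74 (adjusted p 0.314) and that of Dbp 0.60 (adjusted p 0.703).

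**Figure D4:**
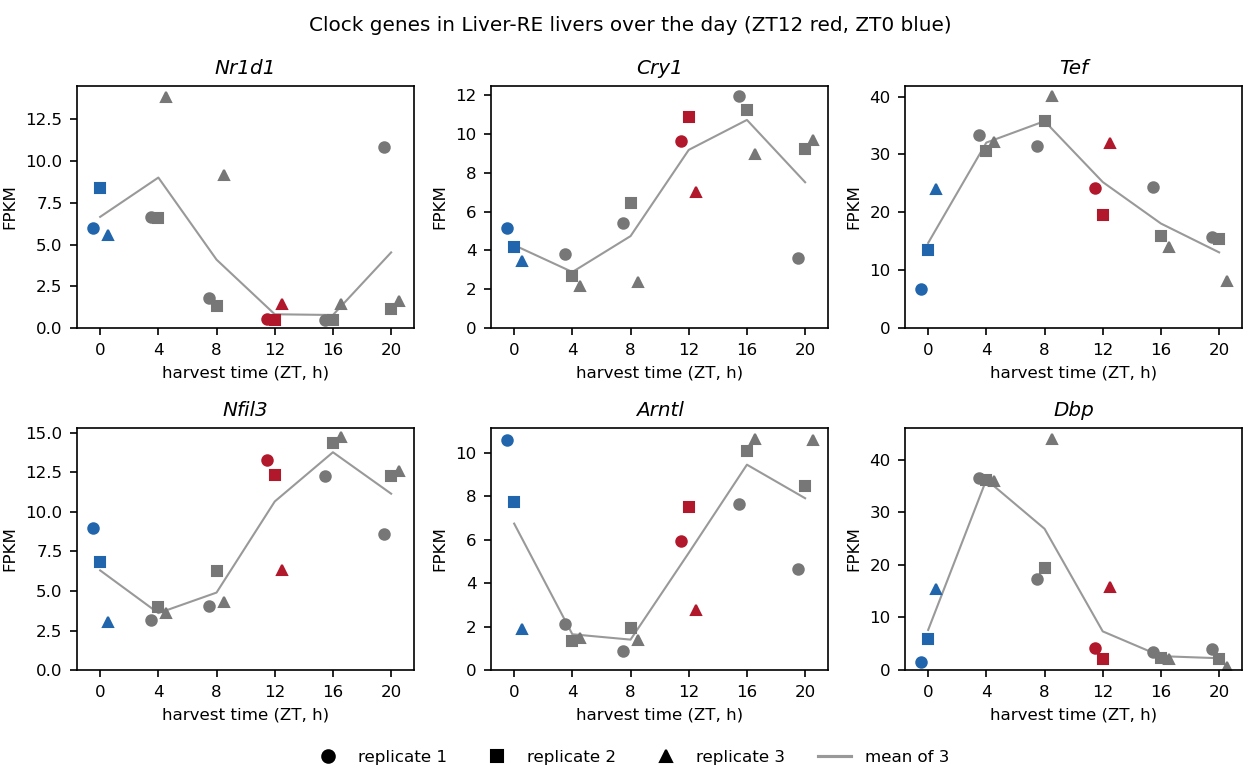
FPKM of 6 clock genes in Liver-RE livers at the 6 harvest times (horizontal axis, ZT in hours), with a symbol for each replicate number and a line through the means of 3 (ZT12 red, ZT0 blue). The ZT12 and ZT0 points of Arntl, Dbp, Tef and Nfil3 overlap, those of Nr1d1 and Cry1 do not, and Dbp has its highest mean at ZT4.

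The difference between ZT12 and ZT0 was set beside that in WT livers in a model of all 54 libraries. In that model Liver-RE had 178 higher (1.54%) and 123 lower genes (1.06%), 2.6% of all genes together and with all 20 of the genes above among them, against 1180 higher (10.2%) and 649 lower (5.61%) in WT. With 1 WT liver left out, the WT counts lay between 695 (without WT ZT12 replicate 2) and 993 higher and between 326 (without WT ZT12 replicate 3) and 619 lower. Of the 20 genes, 18 had the same sign in WT, a share that was not counted over all genes. In WT 8 of the 20 were also called, all with the same sign, against 15.8% of all genes called there. Nampt was such a gene, with 53.9, 65.8 and 57.4 FPKM in WT livers at ZT12, against 15.002, 21.7 and 20.5 at ZT0, and a log2 difference of 1.34 in Liver-RE and 1.59 in WT. Mxi1 differed by 0.53 in Liver-RE and 0.53 in WT, and Sord by 0.75 and 0.82. Across the 11561 genes the log2 differences of Liver-RE and WT had a Pearson correlation of 0.357 and a Spearman correlation of 0.397, as a description. The median size of the difference, without its sign, was 0.154 in Liver-RE, 0.195 in WT and 0.144 in KO livers.

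A test of the difference between the genotypes' differences called 86 genes higher (0.744%) and 78 lower (0.675%) in Liver-RE minus WT. These counts rest on single livers: 33 higher without Liver-RE ZT12 replicate 2 and 22 lower without WT ZT12 replicate 2 were the lowest, and without Liver-RE ZT0 replicate 3 there were 57 and 44. Of the 164 genes, 143 were called in WT, 119 had opposite signs in the 2 genotypes, and 23 had the larger absolute difference in Liver-RE. Picking genes for a gap favours opposite signs. Such a sign need not be a reversal: Ddc differed by only 0.11 in Liver-RE, against −2.51 in WT. Of the 20 genes called in Liver-RE, 2 were among the 164. Hp differed by 1.35 in Liver-RE and −0.10 in WT, a gap of 1.44 ± 0.34 (adjusted p 0.0197), which missed the threshold without Liver-RE ZT12 replicate 2, WT ZT0 replicate 1 or WT ZT12 replicate 2 (highest adjusted p 0.0994). Rwdd2a differed by −1.77 in Liver-RE and 0.21 in WT, a gap of −1.98 ± 0.43 (adjusted p 0.0111), which stayed past the threshold whichever of the 12 livers was left out.

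The clock genes held 10 of the 164 calls, from 18 tested, against 1.42% of all genes. Dbp differed by −0.05 in Liver-RE and 4.72 in WT, where the livers had 48.5, 34.2 and 35.7 FPKM at ZT12 against 0.764, 0.413 and 0.388 FPKM at ZT0 (gap −4.77 ± 0.93, adjusted p 0.00465). Arntl had 0.464, 0.495 and 0.350 FPKM at ZT12 in WT livers, against 12.0, 11.6 and 11.3 FPKM at ZT0, so that the gap to Liver-RE was 3.00 ± 0.59 (adjusted p 0.00465). Nr1d1 and Nfil3 had opposite signs in the 2 genotypes. Nr1d1 differed by −2.09 in Liver-RE and 1.52 in WT (gap −3.61 ± 0.80, adjusted p 0.0117), and Nfil3 by 0.71 and −1.56 (gap 2.27 ± 0.47, adjusted p 0.00649). Clock, Ciart, Nr1d2 and Tef were also called, and these 8 genes stayed past the threshold whichever of the 12 livers was left out. Per2 and Per3 were called with all livers (adjusted p 0.0315 and 0.0487) but not without 7 and 10 of the single livers in turn. Cry1 (1.49 ± 0.47, adjusted p 0.112) was not called.

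In the fatty acid list Acaca and Me1, malic enzyme, differed between the genotypes. Acaca differed by −1.40 in Liver-RE and 0.93 in WT, where the livers had 29.6, 34.6 and 27.3 FPKM at ZT12 against 9.32, 23.4 and 16.5 FPKM at ZT0 (gap −2.33 ± 0.42, adjusted p 0.00259). Me1 differed by −1.53 in Liver-RE and 0.98 in WT (gap −2.51 ± 0.60, adjusted p 0.0220), a call kept without 6 of the 12 single livers. In the cholesterol list Insig2, which retains the SREBPs in the endoplasmic reticulum, differed by −0.50 in Liver-RE and −2.57 in WT (gap 2.07 ± 0.51, adjusted p 0.0277), kept without 4 of the 12. Cldn1, a claudin of tight junctions, had the smallest p of all. It had 34.3, 43.2 and 23.8 FPKM at ZT12 in Liver-RE, against 31.4, 26.5 and 14.8 FPKM at ZT0, while WT livers had 10.7, 8.47 and 6.05 FPKM at ZT12 against 43.0, 58.5 and 44.8 FPKM at ZT0 (gap 2.91 ± 0.44, adjusted p 0.000646). The 2 groups overlapped in Liver-RE and were apart in WT.

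**Figure D5:**
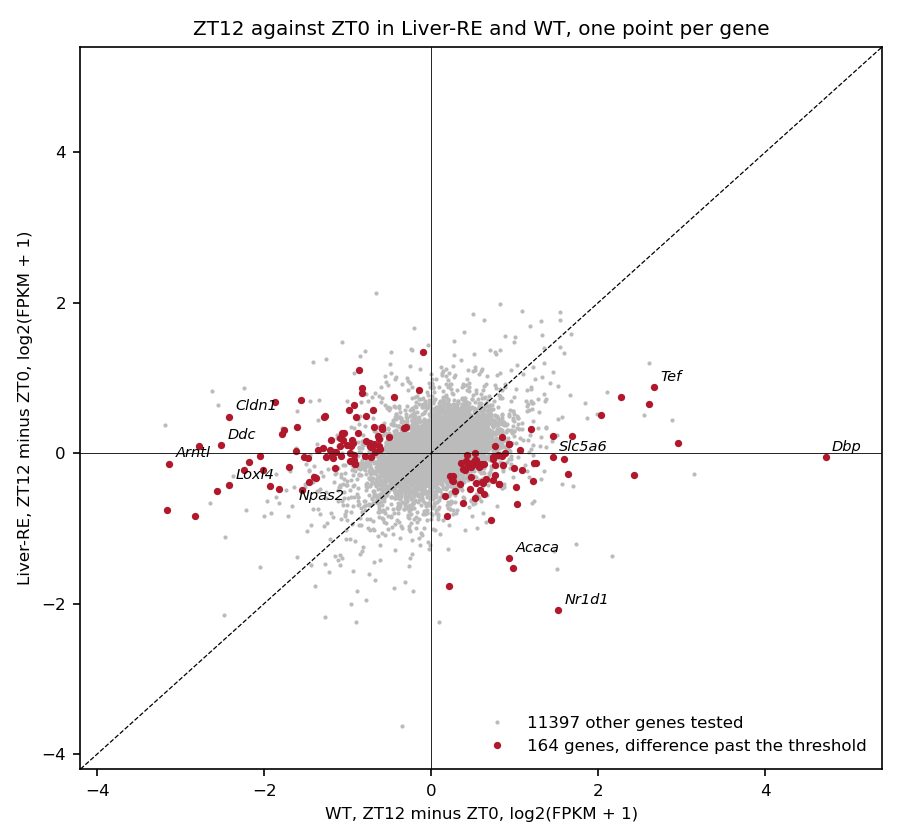
ZT12 minus ZT0 on the log2(FPKM + 1) scale in Liver-RE livers (vertical axis) and WT livers (horizontal axis), 1 point per gene, with the 164 genes whose differences differed between the genotypes in red and a dashed line of equality. Dbp lies at −0.05 in Liver-RE and 4.72 in WT, Rwdd2a at −1.77 and 0.21, and Acaca and Nr1d1 lie below 0 in Liver-RE and above 0 in WT.

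In the livers labelled KO, 2 genes rose and 0 fell between ZT12 and ZT0 (0.0173%), with 1628 at an unadjusted p under 0.05 (14.1%, 7.99% higher and 6.09% lower). They were Bmyc, with a log2 difference of 0.94, and Met, with 0.60, against −0.03 and 0.50 in Liver-RE. Neither was called without KO ZT0 replicate 1, KO ZT12 replicate 1 or KO ZT12 replicate 3, and without KO ZT0 replicate 2 there were 156 higher and 12 lower genes. Arntl RNA was present in KO livers, at 8.39, 7.02 and 8.39 FPKM at ZT12 and 6.26, 8.33 and 6.50 FPKM at ZT0, and a value per gene does not show whether these reads include the altered part. Dbp was low at both times in KO, at 1.53, 1.10 and 1.53 FPKM at ZT12 and 0.962, 0.555 and 0.936 FPKM at ZT0. No gene passed the test of Liver-RE minus KO (limma), in which 1248 had an unadjusted p under 0.05 (10.8%, 4.96% higher and 5.83% lower) and the smallest adjusted p was 0.0540, that of Chd1l. A p that misses the threshold does not show that the genotypes were alike: without Liver-RE ZT0 replicate 3 this test called 27 higher and 39 lower genes. Nampt had 14.1, 14.5 and 19.6 FPKM at ZT12 in KO, against 14.8, 23.2 and 13.3 FPKM at ZT0, and a gap of 1.40 ± 0.30 between Liver-RE and KO (adjusted p 0.0637). Ces1d had 150.04, 95.8 and 181 FPKM at ZT12 in KO, against 106, 166 and 163 FPKM at ZT0 (gap 1.39 ± 0.30, adjusted p 0.0637), and its KO levels at both times lay below all 6 Liver-RE livers.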

How the data were processed

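RNA was measured in 54 livers, 3 for each of 6 harvest times in each of 3 genotypes, as total RNA depleted of ribosomal RNA and sequenced single-end for 100 cycles, per the labels' protocols. The values per gene were taken as FPKM, as deposited by the authors in 1 table, because they fall in steps that depend on both the gene and the library. The table does not name its unit. CASAVA 1.8.2 and the mm10 build are named, with no role, in the submitters' processing notes, while no source used here gives the aligner, the counting tool or the annotation. All columns of the table were assigned to a sample by their names (0 without one). Depth, estimated from the steps, was 24.5 to 42.7 M reads over all libraries.

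Values were analysed as log2(FPKM + 1), so that changes of low genes are understated, over genes with a mean of at least 0.5 FPKM in the 6 livers compared. limma 3.58.1 (R 4.3.3, empirical Bayes with a mean trend, two-sided) gave each gene 1 mean per harvest time from the 18 Liver-RE libraries (12 residual degrees of freedom), and the contrast ZT12 minus ZT0. WT, KO and the differences between genotypes came from all 54 libraries with 18 group means. p-values were adjusted by Benjamini-Hochberg over all 11561 genes, with a threshold of 0.05. The statistics were tested on simulated data. Nothing in the labels says more of the replicates than that they are separate mice, and replicate numbers were not taken as pairs. The members and gene lists were chosen with earlier results of these data known. The text names all clock list genes, the genes past the threshold, the 10 smallest p of each comparison and up to 4 genes of the smallest p per list. Fasn, Acly, Scd1, Srebf1, Srebf2, Insig1, Insig2, Me1, Bmyc and Met, and the E-box stretches shown, were chosen after their values were seen. A few named genes are not reported here. Alternatives were a replicate block, another pseudocount, filter, scaling, set of libraries or variance model, and each liver left out. The fits without ZT20 replicate 1, with or without ZT0 replicate 3, were added after seeing the data. Motifs and figures were made with Python 3.11.15.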

Additional observations from a re-analysis of the deposited data

Results flagged for a closer look

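The 9 genes below were among those with the smallest p in the test of whether ZT12 minus ZT0 differed between Liver-RE and WT livers (limma, adjusted over 11561 genes), and were picked out because the difference between the genotypes itself passed the test. All 9 passed it whichever of the 12 livers was left out. In 6 of them the gap was positive, with a lower level at ZT12 than at ZT0 in WT. For Cldn1 the gap was 2.91 ± 0.44 (SE) on the log2 scale (adjusted p 0.000646). Ddc, which makes dopamine and serotonin from their amino acid precursors, had a gap of 2.62 ± 0.46, with 31.7, 42.9 and 15.4 FPKM at ZT12 against 33.5, 25.3 and 19.8 FPKM at ZT0 in Liver-RE, and 9.94, 7.01 and 4.77 FPKM at ZT12 against 44.2, 52.4 and 37.9 FPKM at ZT0 in WT. Loxl4, a lysyl oxidase, had a gap of 2.00 ± 0.36, Wrnip1 1.28 ± 0.23 and Fam20a 0.98 ± 0.17 (adjusted p 0.00259 for each of these and Ddc). Cpn2, a subunit of plasma carboxypeptidase N, had a gap of 0.94 ± 0.18 (adjusted p 0.00426), with differences of 0.35 in Liver-RE and −0.59 in WT.

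The gap was negative in the other 3, each with an adjusted p of 0.00259. Acaca had a gap of −2.33 ± 0.42. Slc5a6, the sodium-dependent vitamin transporter for biotin, had a gap of −1.51 ± 0.25, with 1.33, 0.997 and 1.84 FPKM at ZT12 against 0.969, 1.43 and 2.07 FPKM at ZT0 in Liver-RE, and 4.57, 3.88 and 5.10 FPKM at ZT12 against 0.995, 1.08 and 0.936 FPKM at ZT0 in WT. Tbc1d24 had a gap of −1.02 ± 0.18, with a negative difference in Liver-RE (−0.40) and a positive one in WT (0.63).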

How the results depend on the processing

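With 13 genes higher and 7 lower as the values reported for Liver-RE, a pseudocount of 0.1 gave 20 and 16, no filter 0 and 0, a mean of at least 1 FPKM 24 and 18, quantile normalization 56 and 49, the 20 most abundant genes left out 37 and 144, all 54 libraries 178 and 123, only the 6 libraries 14 and 9, robust empirical Bayes 11 and 4, and no intensity trend 30 and 20. The 23 calls from only the 6 libraries held 8 of the 20 genes: Pcp4l1, Cyp3a13, Snora52, Ces1d, Rwdd2a, Scap, Dio3os and Dsg1c. The largest adjusted p of the 20 in that limma fit was 0.137. Without ZT0 replicate 3 and ZT20 replicate 1 there were 56 and 59. With 1 liver left out the counts ran from 0 to 158 higher and from 0 to 93 lower. WT counts ran from 695 to 993 higher and from 326 to 619 lower, KO counts from 0 to 156 and from 0 to 12, Liver-RE minus WT from 33 to 105 and from 22 to 95, and Liver-RE minus KO from 0 to 27 and from 0 to 39. A pseudocount of 0.1 gave 1 higher gene in KO and 1 lower in Liver-RE minus KO. Quantile normalization gave 1 lower in KO, and 8 higher and 6 lower in Liver-RE minus KO. With only the 18 libraries at ZT0 and ZT12 there were 672 higher genes in WT and 0 in KO, and 49 higher and 19 lower in Liver-RE minus WT. The cause of these moves was not tested. The other counts under these settings stayed within 1.5 times the value reported. No named gene changed direction and stayed past the threshold. Of 2830 pairs of a named gene and a setting, 2589 stayed on the same side of the threshold. Another 99 passed it anew and 142 no longer passed it. The 2589 include pairs past the threshold in neither fit whose direction changed, such as Dbp without ZT0 replicate 3.

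Deviations of same-numbered livers correlated at −0.115, −0.121 and 0.0262, and those of differently numbered livers at −0.112 to 0.230. These values show no pairing by replicate number. With 3 livers at each of the 2 times they cannot settle whether same-numbered livers share a batch. A replicate block gave 3 higher (Cyp3a13, Ces1d and Dsg1c) and 0 lower genes in Liver-RE, 1283 and 684 in WT, 2 and 0 in KO, 94 and 79 in Liver-RE minus WT, and 1 and 1 in Liver-RE minus KO. With 3 livers a time, an exact permutation test of a single gene cannot go below p = 0.1.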
